A study of Mus musculus with 12 samples.

Results

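Whole bone marrow (BM) of mice that combined a floxed Dnmt3a allele with an internal tandem duplication of Flt3 was compared with wild type BM by total RNA-Seq. The comparison rests on 3 DF libraries (Dnmt3aFlox/+:MxCre with Flt3 ITD/+) and 3 WT libraries, 6 of the 12 libraries of the series, and covers 12175 tested genes. The 3 TF libraries (Tet2+/-/Flt3ITD/+) and the 2 TFD libraries with a column (Tet2+/-/Flt3ITD/+ Dnmt3aFlox/+; MxCre) served to ask which changes the other Flt3 ITD genotypes did not share with DF. All mice were C57BL/6, and all, WT included, had received poly(I:C) at 8 to 10 weeks of age. The RNA came from BM that also served the phenotype analysis, which the study's methods place 8 to 9 weeks after the injection. Poly(I:C) is a double-stranded RNA mimic that induces interferon and, through it, the Mx promoter that drives Cre. MxCre is labelled in DF and TFD and not in WT or TF, and no library carries the Dnmt3a or the Flt3 allele alone, so the effects of Cre, of each allele and of their combination cannot be told apart in DF versus WT. The labels do not say whether the libraries of a genotype came from separate mice, so p values measure only the spread between these libraries.

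Dnmt3a is a methyltransferase that places new methyl groups on DNA, and in blood-forming cells it is known for limiting self-renewal. Flt3 is a receptor tyrosine kinase of early progenitors, and its internal tandem duplication makes it signal without ligand. Marrow cells take erythroid, B lymphoid, dendritic, monocytic or granulocytic routes under transcription factors such as Gata1 and Klf1, Pax5 and Ebf1, Irf8, and the Cebp family, and the RNA of a marrow sample reports the mix of these routes. In such bulk samples, fewer cells of a type and less RNA per cell cannot be told apart.

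Library totals ranged from 8274153 to 15900904 counts over the 12199 deposited genes, and none of the DF libraries was shallower than 10937204. Xist, the RNA that coats the inactive X chromosome of females, passed 10000 counts in WT replicate 3, TF replicate 3 and TFD replicate 2 and in no DF library. Ddx3y, a Y-linked gene, read 3, 12 and 4 counts in WT replicate 3, TF replicate 3 and TFD replicate 2. All other libraries held between 1040 and 2132 Ddx3y counts. By these genes every DF library read as male, while each other genotype held a female-type library once. Sex was thus not balanced between DF and the other genotypes. DF replicate 1 held 538 Xist counts, against 29 and 32 in DF replicates 2 and 3. The samples are labelled mononuclear cells, yet neutrophil granule RNAs were abundant: the 18 late granule genes summed to between 53877 and 67887 CPM (counts scaled to library size with TMM factors) in WT and between 61271 and 86391 CPM in DF. Stromal, endothelial and bone cell genes summed to between 154 and 181 CPM in WT and between 124 and 176 CPM in DF. Globin mRNA had been depleted from the RNA, and the globin genes were not analysed here.

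The targeted genes were looked at first. Dnmt3a read 30.9, 50.4 and 57.8 CPM in the WT libraries and 46.4, 40.2 and 38.01 CPM in the DF libraries, which overlapped (log2 fold change -0.15, SE 0.21, adjusted p = 0.578). The sign of this difference turned without WT replicate 3 (0.0071). A gene-level count includes reads from the other allele and from exons outside a deletion, so it does not check the excision. Flt3 read 30.1, 22.5 and 20.8 CPM in WT and 59.2, 47.9 and 32.96 CPM in DF, higher in every DF library (log2 fold change 0.93, SE 0.28, adjusted p = 0.0185). This call was lost without DF replicate 1, WT replicate 2 or WT replicate 3 (adjusted p = 0.0936, 0.0632 and 0.0836). Socs2, a feedback inhibitor of STAT5 signalling, read 2.22, 2.23 and 3.31 CPM in WT and 23.3, 21.6 and 20.2 CPM in DF (log2 fold change 3.06, SE 0.19, adjusted p = 1.79e-06). The DF libraries lay 8.32-fold above WT for Socs2. With the libraries of TF at 37.3, 35.2 and 33.4 CPM and those of TFD at 26.1 and 36.9 CPM, DF held the lowest level among the 3 mutant genotypes (log2 fold change -0.62, SE 0.14, adjusted p = 0.0334 against the mean of TF and TFD). This call was lost without any 1 DF library, TF replicate 1 or TFD replicate 2, and with a term for libraries of 10000 or more Xist counts (adjusted p from 0.0576 to 0.1515). Socs2 was not typical of its list. Of 15 STAT5 target and feedback genes 4 rose and 3 fell in DF versus WT, at a list median, in log2, of -0.085.

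In DF versus WT, 2560 genes were upregulated, 21.0% of those tested, and 2023 were downregulated, 16.6%, by edgeR's quasi-likelihood test at a Benjamini-Hochberg adjusted p under 0.05. Scaling by library totals, in the same test, gave 1926 up and 2622 down, so the balance of the 2 directions depends on the scaling. The losses were larger than the gains. Of the called genes, 869 fell and 664 rose at least 2-fold, and 127 fell and 11 rose at least 16-fold. The median log2 fold change over all tested genes was 0.055. Among the lists plotted by their share of called genes, the downregulated side held the B cell, erythroid, T cell, plasmacytoid dendritic cell and tissue macrophage genes, and the upregulated side held the monocyte, primary granule, lysosome and cholesterol synthesis genes.

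**Figure D1:**
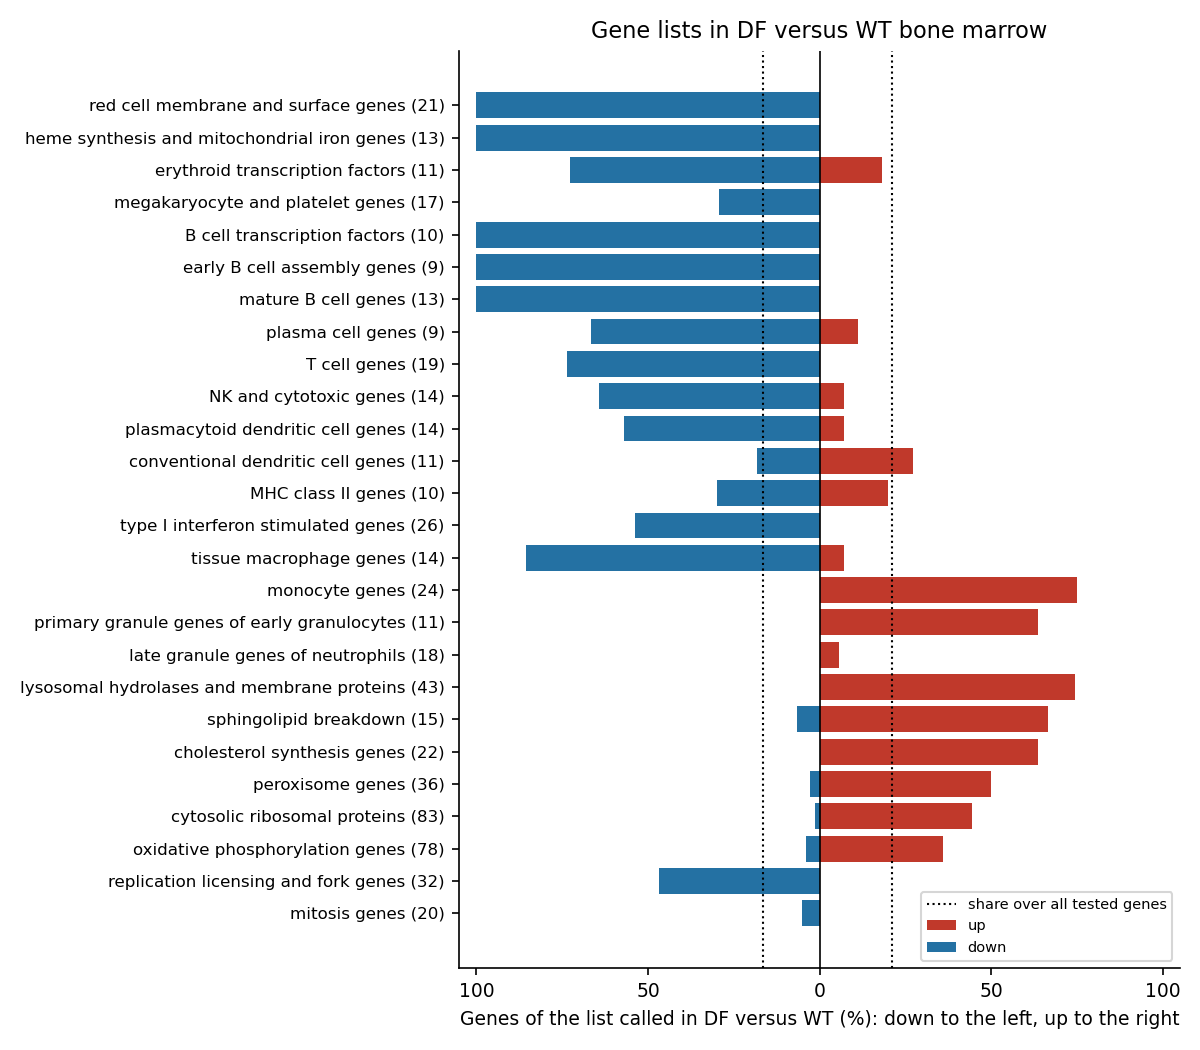
Share of the genes of 26 lists called in DF versus WT (edgeR, adjusted p under 0.05), in percent on the x axis, with downregulated genes drawn to the left and upregulated genes to the right and the number of tested genes in brackets. Dotted lines mark the shares over all tested genes, 16.6% down and 21.0% up, and all 21 red cell membrane genes, all 13 heme genes and all 32 genes of the 3 B cell lists lie on the left.

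To find what DF did not share, DF was compared with the mean of TF and TFD in the same fit. DF was higher in 154 genes, 1.26% of those tested, and lower in 294 genes, 2.41%. A gene was counted as DF-particular when it was called in DF versus WT, called in the same direction against the mean of TF and TFD, and had a DF level beyond that of each of TF and TFD. This gave 58 upregulated and 177 downregulated genes. Of the 177, 73 were also downregulated in both TF and TFD versus WT, with DF lower still, 65 were called in neither, and 16 were called upward in TF or TFD. Of the 58, 45 were called in neither TF nor TFD and 6 were upregulated in both. The 3 mutant genotypes share their WT libraries, so their fold changes are given side by side and not correlated. Over the 177 genes the median change against WT, in log2, was -2.38 in DF, -0.54 in TF and -1.04 in TFD. For the 58 genes it was 0.74 in DF, 0.076 in TF and 0.11 in TFD.

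**Figure D2:**
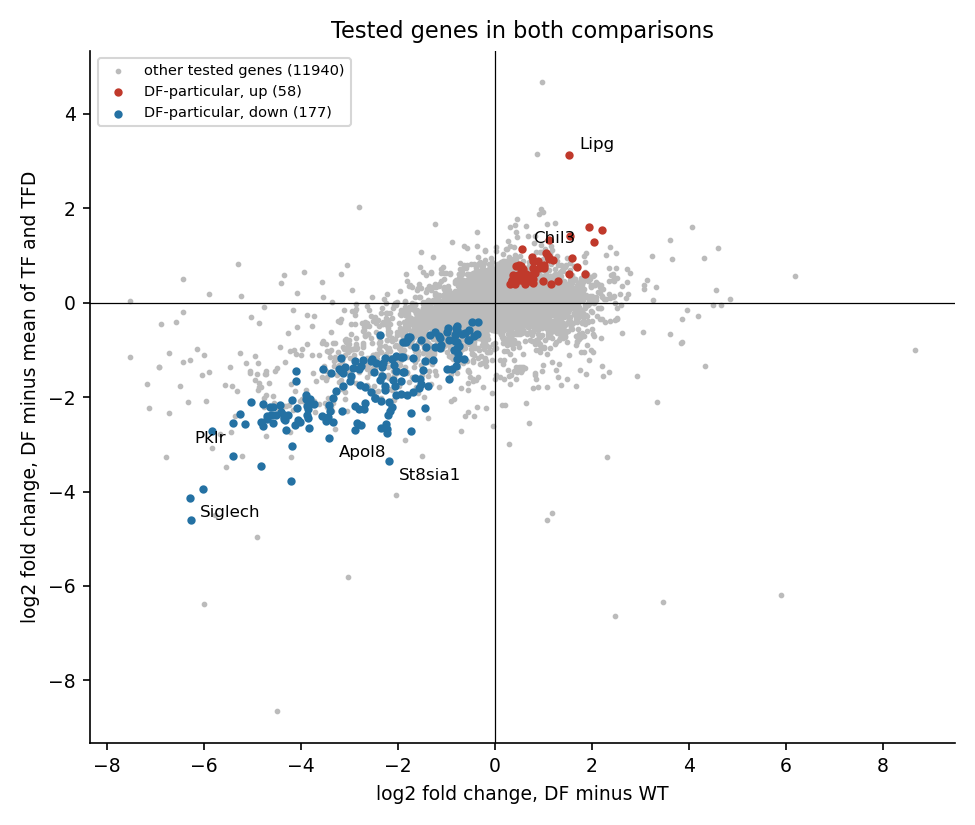
Each tested gene by its log2 fold change in DF versus WT (x axis) and in DF versus the mean of TF and TFD (y axis). The 58 upregulated DF-particular genes (red) sit in the upper right and the 177 downregulated ones (blue) reach further from zero in the lower left. The rule that chose both sets fixes their quadrants.

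The calls against TF and TFD depended on single libraries. Without DF replicate 2, edgeR called 2 genes higher in DF and 0 lower, with 1643 genes at an unadjusted p under 0.05, and no DF-particular gene was left. Every call against TF and TFD that is named below was thus lost without that library. Without DF replicate 1 it called 56 higher and 104 lower, with 12 and 56 DF-particular genes, and without DF replicate 3 it called 16 higher and 27 lower, with 9 and 20. DESeq2 called 305 higher and 599 lower with all libraries, and, in a run chosen after seeing the data, 103 higher and 264 lower without DF replicate 2. Leaving out TFD replicate 2 gave 28 higher and 145 lower, with 10 and 98 DF-particular genes, and leaving out TFD replicate 1 gave 501 higher and 458 lower, with 230 and 232. Without TF replicate 2 the counts were 223 and 505, with 86 and 297 DF-particular genes, and without TF replicate 1 they were 94 and 271, with 31 and 195. Leaving out a WT library gave between 95 and 104 higher genes, the lowest without WT replicate 3, and 29, 32 and 20 upregulated DF-particular genes without WT replicates 1, 2 and 3. The median difference of the 177 genes from TF and TFD was -1.74 in log2 without DF replicate 2 and -1.76 with all libraries. For the 58 genes it was 0.62 and 0.61. Both sets were chosen by this difference with DF replicate 2 included, so these medians are no independent check of it. Among libraries under 10000 Xist counts alone, 79 genes were higher and 322 lower, and 15 of the 58 and 154 of the 177 genes met the rule again.

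**Figure D3:**
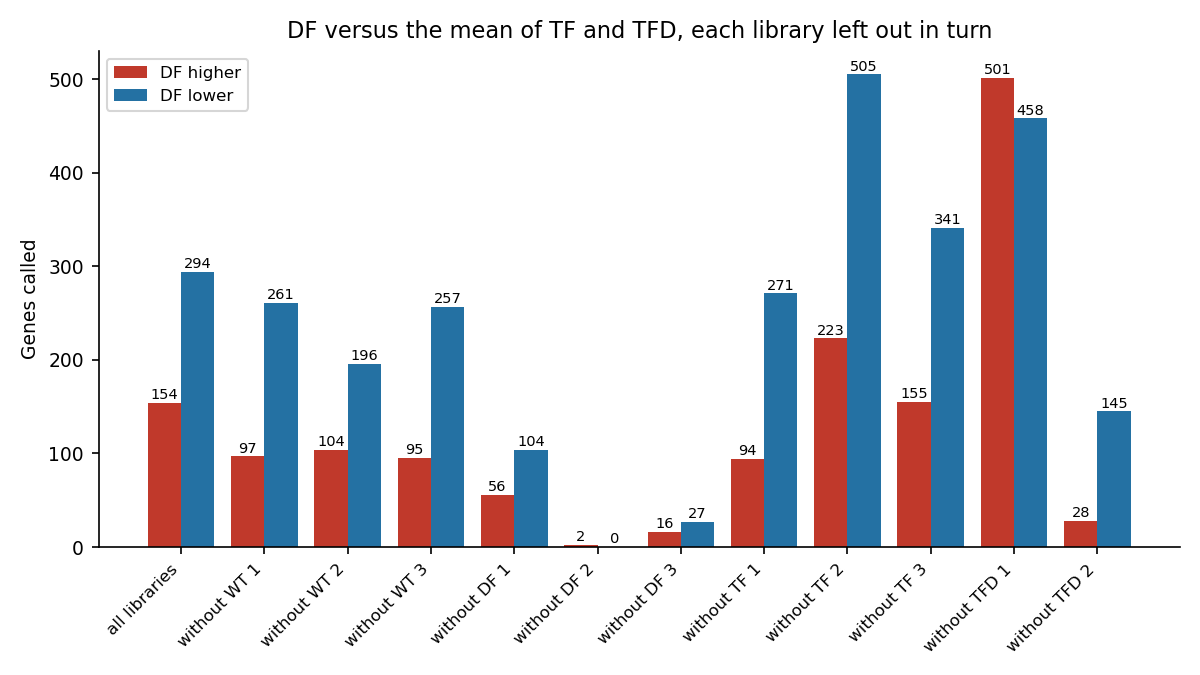
Number of genes called higher (red) and lower (blue) in DF than in the mean of TF and TFD by edgeR, for all 11 libraries and then for each omission of 1 library. The bars fall to 2 and 0 without DF replicate 2 and rise to 501 and 458 without TFD replicate 1.

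Erythroid genes led the losses that set DF apart. All 21 red cell membrane and surface genes, all 13 heme synthesis and mitochondrial iron genes and 8 of 11 erythroid transcription factors were downregulated in DF versus WT, by medians, in log2, of -3.85, -1.65 and -2.27. Over the same genes the medians were -1.10, -0.60 and -1.07 in TF, and -1.78, -0.97 and -1.65 in TFD. Against the mean of TF and TFD, 15, 5 and 4 genes of the 3 lists were lower in DF, and all of these were DF-particular. Of the factors 2 rose against WT. Bcl11a, one of the 4 factors, is also a member of the B cell list, and Epor, one of the 15, is also a growth factor receptor. The summed level of the 21 membrane genes was 2781, 2934 and 3459 CPM in WT and 516, 669 and 571 CPM in DF. It was 962, 1151 and 2603 CPM in TF and 1170 and 934 CPM in TFD, so TF replicate 3 lay just below WT while every DF library lay below every other library. Without TF replicate 3, 16 of the 21 membrane genes were still lower in DF than in TF and TFD, without DF replicate 2 none was, and without DF replicates 1 and 3 it was 8 and 5. All 21 stayed downregulated against WT in each of these settings.

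Klf1, the erythroid factor that switches on adult globin and membrane genes, read 74.6, 45.05 and 87.4 CPM in WT, 3.25, 3.15 and 2.57 CPM in DF, 9.13, 16.4 and 49.3 CPM in TF and 12.6 and 7.22 CPM in TFD. It was 22.9-fold lower in DF than in WT (log2 fold change -4.51, SE 0.55, adjusted p = 6.81e-05) and 5.22-fold lower than in the mean of TF and TFD (adjusted p = 0.0295). Against TF and TFD, Klf1 lost its call without any 1 DF library (adjusted p from 0.0814 to 0.1399). limma voom, the Xist term and only the groups compared lost it too (adjusted p = 0.1179, 0.0512 and 0.0515). Gata1, the master regulator of red cell and platelet precursors, read 36.4, 23.02 and 39.3 CPM in WT and 1.75, 2.06 and 3.07 CPM in DF (log2 fold change -3.87, SE 0.48, adjusted p = 7.46e-05). No DF library overlapped WT, TF or TFD for either factor. Sox6, a partner in silencing embryonic globin, fell by a similar measure (log2 fold change -3.72, SE 0.44, adjusted p = 5.05e-05 against WT and log2 fold change -2.14, SE 0.41, adjusted p = 0.0168 against TF and TFD). Its call against TF and TFD was lost without any 1 DF library (adjusted p from 0.0626 to 0.1045). Tal1 and Gfi1b were downregulated against WT (log2 fold changes -2.27 and -3.70, adjusted p = 0.000101 and 0.000185) but missed the threshold against TF and TFD in edgeR (adjusted p = 0.0774 and 0.085). DESeq2 called both factors lower there (adjusted p = 0.00592 and 0.0394). Lmo2, the bridging protein of the same complex, did not follow: it read 119, 104 and 129.9 CPM in WT and 141, 135 and 128 CPM in DF (adjusted p = 0.218).

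Epor, the erythropoietin receptor, was 19.98-fold lower in DF than in WT, at 0.873, 0.837 and 1.29 CPM against 16.8, 17.3 and 24.9 CPM (log2 fold change -4.32, SE 0.52, adjusted p = 6.06e-05), and 5.599-fold lower than in TF and TFD (log2 fold change -2.49, SE 0.51, adjusted p = 0.022). Against TF and TFD, Epor lost its call in limma voom (adjusted p = 0.0775) and without any 1 DF library or TFD replicate 2 (adjusted p from 0.0512 to 0.1343). Slc4a1, the band 3 anion exchanger that anchors the membrane skeleton, read 256, 234 and 279 CPM in WT and 25.7, 39.7 and 44.8 CPM in DF (log2 fold change -2.81, SE 0.39, adjusted p = 0.000163). Its level in TF, 116, 162 and 377 CPM, and TFD, 182 and 96.8 CPM, was not called against WT (adjusted p = 0.636 and 0.136). DF differed by -2.25 in log2 from the mean of TF and TFD (adjusted p = 0.0111). Ankyrin (Ank1), which ties the membrane to its skeleton, and the Rh proteins Rhag and Rhd all met the DF-particular rule, with log2 fold changes against WT of -3.85, -4.34 and -3.85. Tfrc, the transferrin receptor, which many dividing cells use, was downregulated against WT (-1.60, adjusted p = 0.000531) without a call against TF and TFD (adjusted p = 0.309).

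Among heme genes, Alas2, the erythroid enzyme of the committed step, read 35.96, 42.9 and 44.9 CPM in WT, 6.51, 10.2 and 10.8 CPM in DF, 28.5, 39.7 and 84.5 CPM in TF and 39.7 and 20.8 CPM in TFD. The DF libraries lay below all others, 4.51-fold below WT (log2 fold change -2.17, SE 0.37, adjusted p = 0.000714) and 4.299-fold below TF and TFD (log2 fold change -2.10, SE 0.35, adjusted p = 0.0119), whereas neither TF nor TFD was called against WT (adjusted p = 0.516 and 0.434). Alad, the next enzyme of the pathway, and Cpox, a later one, were 6.89-fold and 7.54-fold lower than in WT (adjusted p = 4.71e-05 and 4.35e-05). Slc25a37, the mitochondrial iron importer mitoferrin 1, fell 3.14-fold (adjusted p = 0.000133). Urod, the uroporphyrinogen decarboxylase, fell against WT (adjusted p = 0.000146) but not past the threshold against TF and TFD (adjusted p = 0.187).

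Several of the DF-particular genes with the largest differences also serve red cells. Pklr, the red cell and liver pyruvate kinase, read 43.4, 34.2 and 54.8 CPM in WT and 2.06, 0.901 and 0.693 CPM in DF (log2 fold change -5.16, SE 0.55, adjusted p = 3.17e-05). Smim1, which carries the Vel blood group, read 15.5, 9.78 and 16.4 CPM in WT and 0.238, 0.579 and 0.693 CPM in DF (log2 fold change -4.78, SE 0.53, adjusted p = 3.75e-05). Tmod1, which caps actin filaments in the red cell skeleton, was not called in TF or TFD versus WT (adjusted p = 0.84 and 0.311) and was 7.15-fold lower in DF (log2 fold change -2.84, SE 0.50, adjusted p = 0.000828). All 3 were lower in DF than in the mean of TF and TFD, by 5.94-fold, 6.09-fold and 5.89-fold (adjusted p = 0.026, 0.022 and 0.0146). Smim1 and Tmod1 lost this call without any 1 DF library (adjusted p from 0.0511 to 0.1128). Pklr lost it without DF replicate 2 or 3 or TFD replicate 2 and with only the groups compared (adjusted p from 0.0516 to 0.1509). In limma voom Pklr and Smim1 lost it too (adjusted p = 0.0853 and 0.0743).

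Because these genes fell together, their promoters (RefSeq, GRCm38.p6, the 250 bases before the start) were searched on both strands for AGATAA, a form of the site that GATA factors bind. Of the 13 red cell membrane genes with a promoter in the table, 4 held a match, among 14 windows of which 28.6% matched. The motif was also in 3 of 9 matched erythroid transcription factors and 1 of 10 heme genes. Lists outside the erythroid groups held it too, with 50% of the 14 windows of eosinophil, basophil and mast cell genes, 25% of the 12 of chemokine receptors and 23.5% of the 17 of sphingolipid breakdown genes. Over the 11759 windows of tested genes the share was 6.1%, and over all 32851 promoters of the table it was 9.99%. Alas2 and Epor are shown as members of 2 different lists that both met the DF-particular rule, with the match in capitals (TTATCT on the opposite strand).
Alas2, chrX:150547167-150547416, plus strand: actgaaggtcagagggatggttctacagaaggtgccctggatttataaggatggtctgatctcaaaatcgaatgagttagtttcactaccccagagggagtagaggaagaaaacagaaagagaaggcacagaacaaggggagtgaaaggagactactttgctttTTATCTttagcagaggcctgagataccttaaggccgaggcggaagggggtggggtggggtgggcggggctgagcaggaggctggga
Epor, chr9:21963577-21963826, minus strand: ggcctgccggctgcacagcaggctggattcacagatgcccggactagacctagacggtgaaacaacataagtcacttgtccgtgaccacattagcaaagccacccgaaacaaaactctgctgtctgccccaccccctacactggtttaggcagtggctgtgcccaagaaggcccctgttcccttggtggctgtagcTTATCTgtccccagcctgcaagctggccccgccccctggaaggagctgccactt
The match lies 86 bases before the start of Alas2 and 54 bases before that of Epor. A match describes letters in the window and no binding was measured.

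Interferon-stimulated genes fell in DF. Of 26 type I interferon stimulated genes, 14 were downregulated and none upregulated in DF versus WT, at a list median, in log2, of -0.98, beside 0.69 in TF and -0.25 in TFD. Against the mean of TF and TFD 16 were lower in DF, and 10 were DF-particular. The summed level of the 26 genes was 750, 897 and 939 CPM in WT and 539, 529 and 600 CPM in DF, while TF held 1233, 864 and 1740 CPM and TFD 672 and 827 CPM. Every DF library thus lay below every other library. All groups, WT included, had received poly(I:C). Without TF replicate 3 the count of genes lower than in TF and TFD was 16, and without DF replicates 1, 2 and 3 it was 10, 0 and 6.

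Rsad2, which encodes the antiviral enzyme viperin, read 24.9, 34.2 and 45.4 CPM in WT and 5.48, 6.5 and 8.61 CPM in DF, 5.11-fold lower (log2 fold change -2.35, SE 0.37, adjusted p = 0.000398). In TF it read 37.2, 21.02 and 67.1 CPM and in TFD 18.2 and 21.8 CPM, and DF was lower than their mean (log2 fold change -2.08, SE 0.35, adjusted p = 0.0119). Usp18, the protease that removes Isg15 and restrains interferon receptor signalling, fell 4.703-fold against WT (log2 fold change -2.23, SE 0.37, adjusted p = 0.000566) and 5.91-fold against TF and TFD (log2 fold change -2.56, SE 0.35, adjusted p = 0.00883), while TF was called higher than WT (log2 fold change 0.99, adjusted p = 0.0271). The RNA sensors Oas2, Oas1a and Oas3 were 6.51-fold, 2.89-fold and 2.43-fold lower than in WT (adjusted p = 0.00029, 0.00546 and 0.000391). Ifit3 read 3.37, 8.42 and 10.1 CPM in WT and 1.35, 1.03 and 1.98 CPM in DF (log2 fold change -2.35, SE 0.58, adjusted p = 0.007), with the other libraries between 3.88 and 5.97 CPM in TFD and 12.9, 6.79 and 29.3 CPM in TF. Irf7, the factor that amplifies interferon production, and Irf9, the DNA-binding part of the complex that drives these genes, fell less (log2 fold changes -0.77 and -0.42, adjusted p = 0.0144 and 0.0076), and the call for Irf7 was lost without DF replicate 1 or 2 (adjusted p = 0.0526 and 0.06697). Both rose in TF versus WT (0.81 and 0.52, adjusted p = 0.00988 and 0.00243). Mx1, an antiviral GTPase whose promoter is the one that drives MxCre, was not called against WT. Its DF libraries, 20.7, 17.1 and 18.8 CPM, overlapped WT, 10.5, 19.1 and 16.5 CPM, and lay below TF, 49.1, 38.3 and 59.6 CPM, and TFD, 27.8 and 37.9 CPM (log2 fold change -1.09, SE 0.20, adjusted p = 0.0136). Of 14 receptors and signal transducers of interferon, 4 rose and 4 fell in DF versus WT, 28.6% each beside 21.0% and 16.6% of all tested genes.

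The promoters of interferon-stimulated genes hold a tandem element bound by interferon-activated factors. In the 250 bases before the start, GAAA followed after any 2 bases by GAAA was found, on either strand, in 47.4% of the 19 windows of this list, covering 9 of the 17 genes with a promoter in the table, against 2.8% of the windows of tested genes and 2.98% of all promoters. The 3 windows below belong to DF-particular genes, with the matches in capitals.
Ifit3, chr19:34583279-34583528, plus strand: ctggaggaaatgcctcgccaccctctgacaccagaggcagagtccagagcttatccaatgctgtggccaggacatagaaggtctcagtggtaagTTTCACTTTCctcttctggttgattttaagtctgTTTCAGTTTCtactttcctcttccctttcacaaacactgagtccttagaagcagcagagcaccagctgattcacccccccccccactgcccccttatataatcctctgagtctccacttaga
Ifit1, chr19:34640639-34640888, plus strand: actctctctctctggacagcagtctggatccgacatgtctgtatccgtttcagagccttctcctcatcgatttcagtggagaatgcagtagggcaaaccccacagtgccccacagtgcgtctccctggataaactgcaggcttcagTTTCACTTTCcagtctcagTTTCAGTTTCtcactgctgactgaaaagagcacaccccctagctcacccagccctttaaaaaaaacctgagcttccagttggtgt
Rsad2, chr12:26456453-26456702, minus strand: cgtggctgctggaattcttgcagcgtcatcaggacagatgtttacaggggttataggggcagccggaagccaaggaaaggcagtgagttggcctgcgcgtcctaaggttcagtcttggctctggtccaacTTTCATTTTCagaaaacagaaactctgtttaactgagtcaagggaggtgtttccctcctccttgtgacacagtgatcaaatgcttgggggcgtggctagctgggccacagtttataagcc
Ifit3 and Ifit1 held 2 matches each and Rsad2 held 1, all on the opposite strand, where it reads TTTC on both sides of the gap. Ifit1 read 5.17, 7.302 and 11.4 CPM in WT and 2.38, 1.54 and 2.38 CPM in DF (log2 fold change -1.93, SE 0.53, adjusted p = 0.0119), so the 3 genes shown were all downregulated against WT and against TF and TFD (adjusted p = 0.0218, 0.0476 and 0.0119). Without WT replicate 3 or DF replicate 2 the call for Ifit1 against WT was lost (adjusted p = 0.0501 and 0.0532). Against TF and TFD, Ifit1 lost its call without any 1 WT or DF library, TF replicate 1 or TFD replicate 2 (adjusted p from 0.0505 to 0.209). limma voom, the Xist term and only the groups compared lost it too (adjusted p = 0.1454, 0.0629 and 0.0729). Ifit3 lost its call there without any 1 DF library or TFD replicate 2 and in limma voom (adjusted p from 0.0617 to 0.1343).

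**Figure D4:**
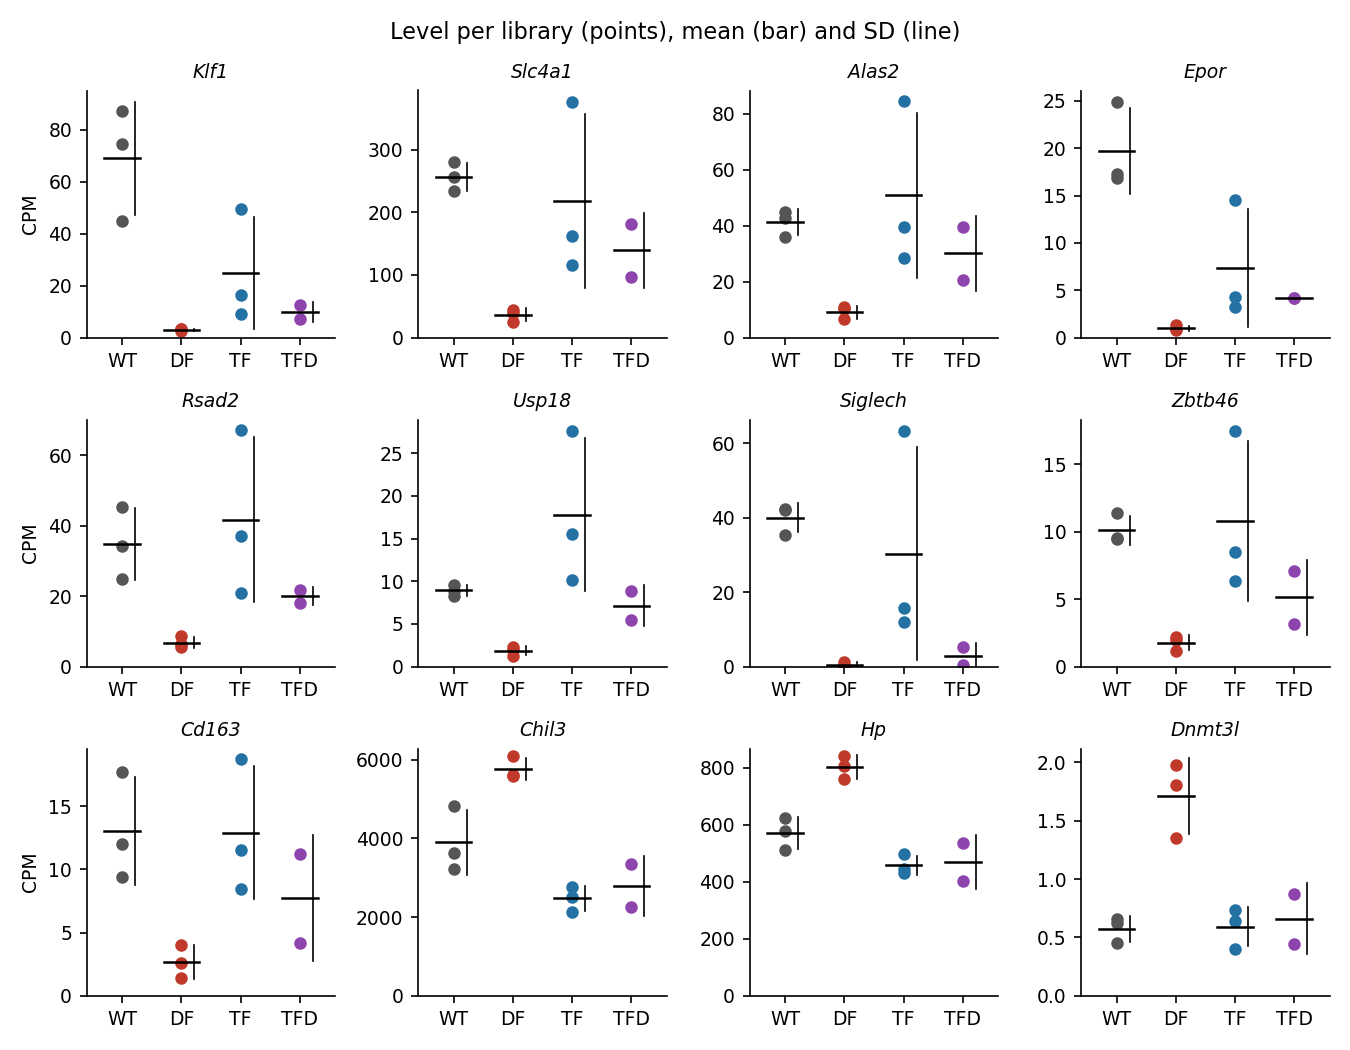
Level in CPM (y axis, from 0, a scale for each gene) of 12 DF-particular genes in each library (points), with the mean as a bar and the SD as a line, for 3 WT, 3 DF, 3 TF and 2 TFD libraries. The DF libraries of Klf1, between 2.57 and 3.25 CPM, and of Rsad2, between 5.48 and 8.61 CPM, lie below all others, and those of Chil3, Hp and Dnmt3l lie above all others.

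Genes of plasmacytoid dendritic cells fell in DF as well. Of 14 plasmacytoid dendritic cell genes, which mark the cells that produce most type I interferon, 8 fell and 1 rose in DF versus WT, at a list median, in log2, of -3.02, beside 0.15 in TF and -0.78 in TFD. Siglech, a surface lectin of these cells, read 35.5, 42.2 and 42.3 CPM in WT and 1.35, 0.0644 and 0.09898 CPM in DF (log2 fold change -6.29, SE 0.94, adjusted p = 0.000272), and 15.8, 11.9 and 63.2 CPM in TF and 0.5003 and 5.26 CPM in TFD. Pacsin1 read 3.45, 2.85 and 4.298 CPM in WT and 0.238, 0.129 and 0.198 CPM in DF (adjusted p = 0.00468), where no library held more than 3 counts. Tcf4, the E protein that specifies this lineage, fell 1.67-fold (log2 fold change -0.74, SE 0.24, adjusted p = 0.0293), a call lost without any 1 of the 3 DF libraries or WT replicate 2 or 3 (adjusted p from 0.0556 to 0.0777). Spib, an Ets factor of plasmacytoid and B cells, fell 56.9-fold (log2 fold change -5.83, SE 0.69, adjusted p = 5.35e-05), and all 4 genes were DF-particular. TFD replicate 1 came close to DF for Siglech and Spib, at 0.5003 and 2.56 CPM, and overlapped it. Of the 14 genes, 6 were lower in DF than in the mean of TF and TFD. DESeq2 gave 10, libraries under 10000 Xist counts gave 3, and the fit without DF replicate 1 gave 0. The list summed to 205, 183 and 204 CPM in DF, 382, 295 and 716 CPM in TF and 213 and 327 CPM in TFD.

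MHC class II genes, which present peptides to helper T cells, gave a mixed picture against WT. Of 10 MHC class II genes, 2 rose and 3 fell in DF versus WT, 20% and 30% beside 21.0% and 16.6% of all tested genes. Their list median, in log2, was -0.22, which turned to 0.13 without DF replicate 3, beside 1.63 in TF and 1.21 in TFD. The list summed to 1237, 1024 and 868 CPM in WT, to 1453, 973 and 416 CPM in DF, to 3049, 1594 and 4776 CPM in TF and to 1942 and 2861 CPM in TFD. H2-Aa, a chain of the I-A molecule, read 336, 251 and 87.9 CPM in DF, overlapping WT at 251, 231 and 193 CPM, and lay below every TF and TFD library (log2 fold change -1.62, SE 0.40, adjusted p = 0.0455). The call for H2-Aa was lost without any 1 WT or DF library, TF replicate 1 or TFD replicate 2, with the Xist term, among libraries under 10000 Xist counts, with the replicate number as a block and with only the groups compared (adjusted p from 0.05202 to 0.164). H2-DMb2 and H2-Oa, which edit peptide loading, were the 2 DF-particular members and fell 5.48-fold and 1.78-fold against WT (adjusted p = 9.75e-05 and 0.0328). The call for H2-Oa was lost without any 1 of the 3 DF libraries or WT replicate 1 or 2 (adjusted p from 0.0587 to 0.0854). Of 11 conventional dendritic cell genes, 3 rose and 2 fell in DF versus WT, 27.3% and 18.2% beside 21.0% and 16.6% of all tested genes. Their list median, in log2, was 1.03, beside 1.57 in TF and 1.86 in TFD. Zbtb46, the factor that marks conventional dendritic cells, read 9.44, 9.53 and 11.4 CPM in WT and 1.98, 2.19 and 1.19 CPM in DF (log2 fold change -2.47, SE 0.41, adjusted p = 0.000604). Clec9a, a lectin of cross-presenting dendritic cells, was not called against WT (adjusted p = 0.707), while TF and TFD rose (log2 fold changes 2.88 and 1.86, adjusted p = 0.000193 and 0.00649), and DF was lower than their mean (log2 fold change -2.16, SE 0.36, adjusted p = 0.0119).

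Of 14 tissue macrophage genes, 12 fell and 1 rose in DF versus WT, at a list median, in log2, of -1.997, beside -0.42 in TF and -1.01 in TFD. Cd163, the scavenger receptor for hemoglobin and haptoglobin, read 11.99, 9.41 and 17.7 CPM in WT and 4.05, 2.57 and 1.39 CPM in DF, 4.82-fold lower (log2 fold change -2.27, SE 0.44, adjusted p = 0.00175). Siglec1, the sialoadhesin of the macrophages that surround erythroblasts, fell 6.41-fold (log2 fold change -2.68, SE 0.48, adjusted p = 0.000951), and Mertk, a receptor for the uptake of dying cells, fell 5.04-fold (log2 fold change -2.33, SE 0.40, adjusted p = 0.000672). These were the 3 DF-particular members. C1qa, C1qb and C1qc, the chains of complement C1q, fell 5.06-fold, 3.998-fold and 3.98-fold against WT (adjusted p = 0.00101, 0.000557 and 0.00103). Against TF and TFD their adjusted p were 0.0535, 0.0609 and 0.0654 in edgeR, but DESeq2 called all 3 lower (adjusted p = 0.001045, 0.00362 and 0.00455), as did edgeR with library totals, the replicate number as a block, without any 1 TF library or among libraries under 10000 Xist counts. The one member that rose was Adgre1, a receptor gene that macrophages share with monocytes (log2 fold change 0.93, SE 0.09, adjusted p = 1.57e-05).

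Primary granule genes rose in DF. Of 11 primary granule genes of early granulocytes, 7 rose and none fell in DF versus WT, at a list median, in log2, of 0.84, beside -0.045 in TF and 0.090 in TFD, and 4 were higher in DF than in TF and TFD. That count was 1 with library totals, 2 with RLE factors and 7 by DESeq2. It was 0 without DF replicate 1 or 2 and 0 among libraries under 10000 Xist counts. The list summed to 7004.7, 7361.4 and 5449.9 CPM in DF, 4275.5, 5126.7 and 3182.9 CPM in TF and 6362.7 and 4345.5 CPM in TFD. TFD replicate 1 thus lay above DF replicate 3. Elane, neutrophil elastase, read 410.4, 581 and 489.9 CPM in WT and 718, 759 and 615 CPM in DF (log2 fold change 0.50, SE 0.15, adjusted p = 0.0223), against 458, 485 and 357 CPM in TF and 508 and 543 CPM in TFD (log2 fold change 0.55, SE 0.14, adjusted p = 0.0459). Its call against WT was lost without WT replicate 1 or 3 or DF replicate 1 or 2 (adjusted p = 0.118, 0.0762, 0.0722 and 0.0860), and its call against TF and TFD held only without WT replicate 2 or TF replicate 2 (adjusted p from 0.0534 to 0.208 in the others). Ms4a3, a marker of granulocyte-monocyte progenitors, rose 1.85-fold (log2 fold change 0.89, SE 0.23, adjusted p = 0.00982), and its DF libraries, 337, 381 and 219.7 CPM, overlapped those of TFD, 231 and 123 CPM. Ctsg, Prtn3 and Mpo, further granule proteins, rose 2.35-fold, 2.08-fold and 1.902-fold against WT (adjusted p = 0.000644, 0.00237 and 0.00493) and were not called against TF and TFD in edgeR (adjusted p = 0.0861, 0.0944 and 0.357). DESeq2 called Ctsg and Prtn3 higher there (adjusted p = 0.0248 and 0.0286) but not Mpo.

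The 18 late granule genes of neutrophils were mostly not called. Only Itgb2l, an integrin chain of neutrophils, rose in DF versus WT (log2 fold change 0.76, SE 0.26, adjusted p = 0.0367), a call lost without any 1 of the 3 WT libraries or DF replicate 2 or 3 (adjusted p from 0.0579 to 0.167). For the list the median log2 fold change was 0.13 in DF, -0.60 in TF and -0.73 in TFD, and 8 genes were higher in DF than in TF and TFD. Without DF replicates 1, 2 and 3 that count was 3, 0 and 1. The median for DF turned to -0.093 without DF replicate 3, whose sum of 86391 CPM was the highest of all libraries, and to -0.028 without WT replicate 3. Lcn2, an iron-binding protein of specific granules, read 2165, 2337 and 2897 CPM in DF, 2299, 2533 and 1707 CPM in WT, 1392, 1461 and 1289 CPM in TF and 1659 and 976 CPM in TFD (log2 fold change 0.87, SE 0.18, adjusted p = 0.0233 against TF and TFD). The call for Lcn2 was lost without any 1 DF library or TFD replicate 2 (adjusted p from 0.05202 to 0.141).

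Chil3, a chitinase-like protein of neutrophils and monocytes, was the DF-particular gene of this kind with the highest counts. It read 3233, 4838 and 3626 CPM in WT, 6087, 5625 and 5589.8 CPM in DF, 2523, 2772 and 2140.0 CPM in TF and 3342 and 2261 CPM in TFD, with every DF library above every other (log2 fold change 0.56, SE 0.19, adjusted p = 0.0321 against WT and log2 fold change 1.13, SE 0.17, adjusted p = 0.01 against TF and TFD). The call against WT was lost without any 1 of the 3 DF libraries or WT replicate 1 or 3 (adjusted p from 0.0682 to 0.146), at log2 fold changes of 0.41 to 0.58. Hp, which encodes haptoglobin, rose 1.405-fold (log2 fold change 0.49, SE 0.13, adjusted p = 0.011; without WT replicate 3 adjusted p = 0.0663) and was 1.73-fold higher than in TF and TFD (log2 fold change 0.79, SE 0.12, adjusted p = 0.01). Ifitm6 rose 2.08-fold (log2 fold change 1.06, SE 0.20, adjusted p = 0.00134), and Chit1, a chitinase of phagocytes, rose 2.14-fold (log2 fold change 1.10, SE 0.29, adjusted p = 0.0094; without WT replicate 3 adjusted p = 0.0526). The lipases Lpl and Lipg differed in their spread. Lpl read 58.7, 45.3 and 73.2 CPM in DF and 18.9, 17.6 and 21.8 CPM in WT without overlap (log2 fold change 1.60, SE 0.27, adjusted p = 0.000726), whereas Lipg read 27.5, 35.8 and 5.74 CPM in DF and 12.7, 3.71 and 7.07 CPM in WT with overlap (log2 fold change 1.54, SE 0.56, adjusted p = 0.0459), against 0.9696, 1.23 and 3.01 CPM in TF and 3.002 and 5.44 CPM in TFD (log2 fold change 3.12, SE 0.53, adjusted p = 0.0121). Without DF replicate 1 or 2, WT replicate 2 or 3, or TFD replicate 2, Lipg was not called against WT (adjusted p from 0.0502 to 0.204). Nor was it with library totals, RLE factors, DESeq2, limma voom, the replicate number as a block or only libraries under 10000 Xist counts (adjusted p from 0.0518 to 0.1135). Stap2, an adaptor of cytokine and kinase signalling, rose 4.65-fold (log2 fold change 2.22, SE 0.45, adjusted p = 0.0021). The lipid raft proteins Flot1 and Flot2 rose 1.68-fold and 1.55-fold (adjusted p = 0.00318 and 0.00121).

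Monocyte, lysosome and sterol genes rose in DF, and few of them differed from TF and TFD. Of 24 monocyte genes 18 rose and none fell, with a median log2 fold change of 1.15 in DF, 1.33 in TF and 1.18 in TFD. Ccr2, the chemokine receptor of inflammatory monocytes, read 262, 283 and 297 CPM in WT and 1678, 1717 and 1272 CPM in DF (log2 fold change 2.47, SE 0.17, adjusted p = 2.19e-06), beside log2 fold changes of 2.62 in TF and 2.35 in TFD against the same WT libraries. Csf1r, the receptor for M-CSF, rose 2.31-fold and Klf4, a monocyte factor, 3.802-fold (adjusted p = 1.9e-05 and 7.61e-06). The one DF-particular monocyte gene was Chil3. F10, coagulation factor X, which lies outside the list, read 27.4, 25.5 and 25.96 CPM in WT, 92, 91.8 and 71.1 CPM in DF, 46.9, 52.3 and 33.9 CPM in TF and 51.4 and 64.2 CPM in TFD, so it rose in all 3 genotypes and rose furthest in DF (log2 fold change 1.69, SE 0.16, adjusted p = 1.86e-05 against WT and log2 fold change 0.75, SE 0.14, adjusted p = 0.0151 against TF and TFD). Irf8, which directs monocyte and dendritic fates, rose 2.49-fold (log2 fold change 1.31, SE 0.12, adjusted p = 1.57e-05) and was not called against TF and TFD (adjusted p = 0.226).

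**Figure D5:**
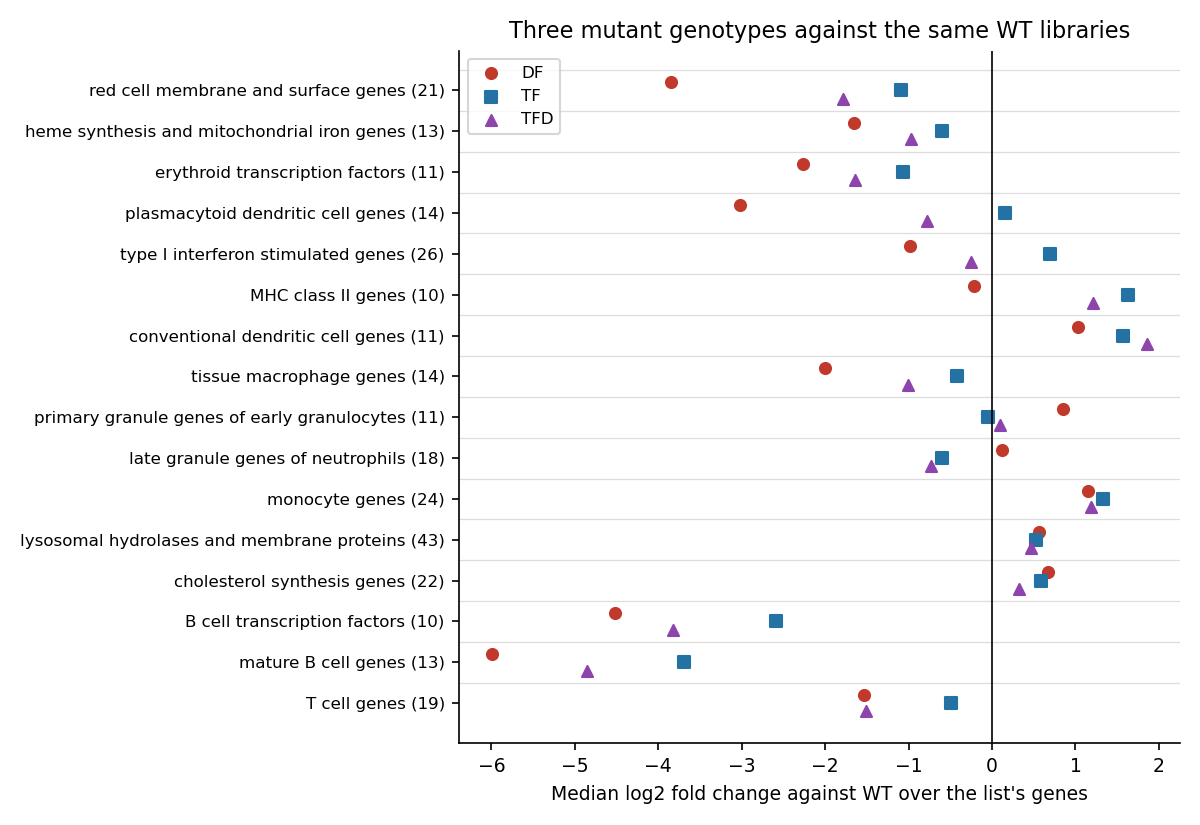
Median log2 fold change against the same 3 WT libraries over the genes of 16 lists, for DF (circles), TF (squares) and TFD (triangles), with the number of tested genes in brackets. DF lies to the left of TF and TFD for the erythroid, B cell, dendritic, MHC class II, interferon and macrophage lists. It lies to their right for the granule lists and close to them for monocyte and lysosome genes. For cholesterol genes the medians are 0.67 in DF, 0.59 in TF and 0.33 in TFD.

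Of 43 lysosomal genes 32 rose and none fell, with medians of 0.56 in DF, 0.53 in TF and 0.47 in TFD. Hgsnat, the acetyltransferase of heparan sulfate breakdown, was the one DF-particular member and rose 2.002-fold (log2 fold change 1.001, SE 0.13, adjusted p = 0.000101). Lamp1, a lysosomal membrane protein, rose 1.96-fold (adjusted p = 2.31e-05). Of 22 cholesterol synthesis genes 14 rose and none fell, with medians of 0.67 in DF, 0.59 in TF and 0.33 in TFD, and Hsd17b7, a late enzyme of the pathway, was DF-particular (log2 fold change 0.90, SE 0.21, adjusted p = 0.00589). Sqle, which makes squalene epoxide in the middle of the pathway, rose 1.71-fold (adjusted p = 0.00693). Of 36 peroxisome genes 18 rose and 1 fell, and Pex2, part of the import machinery, was DF-particular (log2 fold change 0.59, SE 0.13, adjusted p = 0.00368).

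The lymphoid losses against WT were deep, and few of them were called against TF and TFD. All 10 B cell transcription factors, 9 of 9 early B cell assembly genes and 13 of 13 mature B cell genes fell in DF versus WT, by medians, in log2, of -4.52, -5.23 and -5.99, beside -2.59, -3.50 and -3.69 in TF and -3.82, -4.34 and -4.86 in TFD. Ebf1, which commits progenitors to the B lineage, read 67, 86.01 and 79.7 CPM in WT and 1.75, 0.386 and 0.594 CPM in DF (log2 fold change -6.42, SE 0.54, adjusted p = 7.61e-06). The assembly and mature B cell lists differed from the mean of TF and TFD by medians, in log2, of -0.52 and -1.35. DESeq2 called 1 and 2 of their members lower, but in edgeR none of the 22 genes was called lower in DF than in TF and TFD. Bach2, Bcl11a and Spib of the B cell factors were: Bach2, a repressor that delays plasma cell fate, fell 17.1-fold (log2 fold change -4.10, SE 0.40, adjusted p = 1.86e-05) and Bcl11a, also an erythroid globin repressor, 2.66-fold (log2 fold change -1.41, SE 0.24, adjusted p = 0.00061), and Spib was given above. Jchain and Irf4, genes of plasma cells, were DF-particular too, 4.95-fold and 3.84-fold below WT (adjusted p = 0.000213 and 0.00011). Of 19 T cell genes 14 fell and of 14 NK and cytotoxic genes 9 fell and 1 rose, with no member of either list called against TF and TFD.

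Genes of growth and division moved by smaller steps. Of 32 replication licensing and fork genes 15 fell and none rose in DF versus WT, at a list median, in log2, of -0.25, and of 20 mitosis genes 1 fell. Of 83 cytosolic ribosomal protein genes 37 rose and 1 fell, with a median of 0.34, but the number rising was 17 when scaled by library totals, 23 with RLE factors and 9 and 16 without DF replicates 1 and 2. Of 78 oxidative phosphorylation genes 28 rose and 3 fell, and 14 rose with library totals, 12 without DF replicate 1 and 13 without DF replicate 2. Ccnd1, cyclin D1, was one of the DF-particular losses, at 5.56, 2.703 and 1.68 CPM in DF against 28.1, 28.8 and 18.1 CPM in WT (log2 fold change -2.89, SE 0.49, adjusted p = 0.000692) and 20.2, 15.1 and 47.5 CPM in TF. Cdkn2d, the INK4 inhibitor p19, was a DF-particular gain (log2 fold change 0.41, SE 0.09, adjusted p = 0.00493 against WT and log2 fold change 0.40, SE 0.08, adjusted p = 0.0249 against TF and TFD). Against TF and TFD, Cdkn2d lost its call without any 1 DF library or TFD replicate 2 (adjusted p from 0.0791 to 0.1198). Library totals, the Xist term and only the groups compared lost it too (adjusted p = 0.0606, 0.0607 and 0.0559). So did the run on libraries under 10000 Xist counts (adjusted p = 0.1046).

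Among chromatin regulators 1 gain and 1 loss were DF-particular. Dnmt3l, the catalytically inactive partner that stimulates Dnmt3a and Dnmt3b, read 0.657, 0.619 and 0.448 CPM in WT, 1.35, 1.802 and 1.98 CPM in DF, 0.404, 0.736 and 0.638 CPM in TF and 0.876 and 0.446 CPM in TFD. All its levels were low, and the DF libraries lay above all others (log2 fold change 1.56, SE 0.40, adjusted p = 0.00908 against WT and log2 fold change 1.41, SE 0.33, adjusted p = 0.0391 against TF and TFD). The call against TF and TFD was lost without any 1 of the WT or DF libraries, TF replicate 1 or TFD replicate 2 (adjusted p from 0.0549 to 0.169). Dnmt3b and Tet2 rose against WT (0.65 and 0.49, adjusted p = 0.0107 and 0.0261) with no call against TF and TFD. Dnmt3b lost its call without WT replicate 3 or DF replicate 1 (adjusted p = 0.0644 and 0.0506), and Tet2 without WT replicate 1 or 3 or DF replicate 2 or 3 (adjusted p from 0.0619 to 0.112). Cbx7, a chromodomain subunit of Polycomb repressive complex 1, read 16.8, 15.6 and 16.7 CPM in WT and 7.46, 5.86 and 7.52 CPM in DF (log2 fold change -1.24, SE 0.16, adjusted p = 8.94e-05), below TF and TFD (log2 fold change -0.63, SE 0.14, adjusted p = 0.0352). The call against TF and TFD was lost without any 1 DF library, WT replicate 2, TF replicate 1 or TFD replicate 2, with the Xist term and with only the groups compared (adjusted p from 0.05155 to 0.1875). Ezh2, the H3K27 methyltransferase, fell 1.501-fold (log2 fold change -0.59, SE 0.13, adjusted p = 0.00413). Of 8 Hox, Meis and Pbx genes 5 rose and 1 fell, with Hoxa9, a self-renewal factor of myeloid leukemia, up 2.04-fold (log2 fold change 1.03, SE 0.25, adjusted p = 0.00676), and none of them was called against TF and TFD. Without DF replicate 1, 2 of the 8 rose. Hopx, a homeodomain cofactor outside that list, rose in all 3 genotypes and most in DF (log2 fold change 1.53, SE 0.17, adjusted p = 3.53e-05 against WT and log2 fold change 0.61, SE 0.14, adjusted p = 0.0357 against TF and TFD). Against TF and TFD, Hopx lost its call without any 1 DF library, WT replicate 3 or TFD replicate 2 (adjusted p from 0.061 to 0.162). Library totals, the Xist term and only libraries under 10000 Xist counts lost it too (adjusted p = 0.0724, 0.0873 and 0.1058). Of 12 growth factor receptors 7 rose and 2 fell, and Csf2rb, the common chain for GM-CSF, IL-3 and IL-5, rose 1.59-fold (log2 fold change 0.67, SE 0.13, adjusted p = 0.00145).

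The largest single changes of DF versus WT were mostly not DF-particular. Among well expressed genes (mean log2 CPM 1 or more) the 10 largest rises included Kcnip3, a calcium-binding channel partner, at 5.79, 7.72 and 11.7 CPM in DF and 0.0821, 0.495 and 0.448 CPM in WT (log2 fold change 4.66, SE 0.55, adjusted p = 5.65e-05), and Cp, the copper oxidase ceruloplasmin, at 35.2, 29.5 and 31.3 CPM and 2.22, 1.73 and 2.596 CPM (log2 fold change 3.85, SE 0.25, adjusted p = 1.81e-06). Cp rose further in TF and TFD (log2 fold change -0.86, SE 0.17, adjusted p = 0.019). None of the 10 was DF-particular. The 10 deepest falls were led by Chst3, a sulfotransferase, at 66.1, 68.4 and 84.8 CPM in WT and 1.27, 0.129 and 0.09898 CPM in DF (log2 fold change -7.17, SE 0.89, adjusted p = 7.47e-05), and included Scd1, the fatty acid desaturase, 70.03-fold lower (log2 fold change -6.13, SE 0.66, adjusted p = 3.17e-05). Siglech alone among those 10 was DF-particular. The genes with the largest DF-particular differences included St8sia1, a ganglioside sialyltransferase, which read 6.404, 6.19 and 4.298 CPM in WT, 1.43, 1.16 and 1.09 CPM in DF, 14.5, 7.61 and 21.98 CPM in TF and 3.94 and 18.6 CPM in TFD (log2 fold change -2.18, SE 0.59, adjusted p = 0.0112 against WT and log2 fold change -3.36, SE 0.54, adjusted p = 0.0111 against TF and TFD). Apol8, an apolipoprotein L, was 10.8-fold below WT and 7.28-fold below TF and TFD (log2 fold change -3.43, SE 0.44, adjusted p = 0.000101 and log2 fold change -2.86, SE 0.42, adjusted p = 0.01), while TF and TFD were not called against WT (adjusted p = 0.717 and 0.109).

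Another 86 genes lay above the mean of TF and TFD, and 84 below it, without a call in DF versus WT. Vcan, the proteoglycan versican of monocytes, read 326, 361 and 195 CPM in DF, 58.4, 69.6 and 36.2 CPM in TF and 129 and 86.9 CPM in TFD (log2 fold change 1.93, SE 0.41, adjusted p = 0.0256). Its WT libraries were 209, 199 and 38.6 CPM, with replicate 3 far below the others. The female-type libraries, WT replicate 3, TF replicate 3 and TFD replicate 2, held the lowest Vcan level of their genotypes. DF had no such library, and an effect of sex on Vcan was not tested. Vcan lost its call without any 1 DF library or TFD replicate 2 (adjusted p from 0.06155 to 0.1343). limma voom lost it too (adjusted p = 0.0528), as did DESeq2 without DF replicate 1 or 2 (adjusted p = 0.0791 and 0.1351). The Xist term did not. Upp1, uridine phosphorylase, read 9.13, 11.97 and 5.64 CPM in DF and 6.24, 6.81 and 6.63 CPM in WT, which overlapped, above 1.78, 1.88 and 3.19 CPM in TF and 2.69 and 3.39 CPM in TFD (log2 fold change 1.78, SE 0.25, adjusted p = 0.01). In the other direction Mycl, a MYC family factor of dendritic cells, read 3.65, 2.96 and 1.29 CPM in DF and 4.68, 2.48 and 4.48 CPM in WT and was higher in TF, 16.6, 11.5 and 23.7 CPM, and TFD, 6.07 and 15.2 CPM (log2 fold change -2.32, SE 0.39, adjusted p = 0.0121). Ifi205, an interferon-induced DNA-binding protein, showed the same order, with 4.68, 4.25 and 3.17 CPM in DF and 1.89, 4.21 and 5.01 CPM in WT below 18.4, 13.6 and 45.8 CPM in TF and 10.01 and 16.3 CPM in TFD (log2 fold change -2.17, SE 0.42, adjusted p = 0.0173).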

How the data were processed

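Globin-depleted total RNA of whole bone marrow was sequenced. Per the methods, the authors ran FastQC, mapped to mm10 by STAR, counted unique alignments over refGene genes with featureCounts and kept genes above 0.5 CPM in more than 3 samples. Versions and strand setting are not given in the sources used here, so reads of overlapping antisense genes may not be told apart. The deposited table holds raw counts per gene, the authors' log2 CPM and exon lengths. Only the counts were tested here. TFD replicate 3 has no column and was not analysed here.

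The same filter removed 24 of 12199 genes. Counts of the 11 libraries were fitted in edgeR 4.0.16 (R 4.3.3) with TMM factors and a mean per genotype, and the quasi-likelihood test gave DF versus WT and DF versus the mean of TF and TFD, with Benjamini-Hochberg adjustment over 12175 genes and a threshold of 0.05. The study's methods used DESeq2 and DESeq2 1.42.0 is an alternative here, as are limma 3.58.1 (voom), other scalings and filters, a block and leaving out each library. CPM values carry the TMM factors. The fits were checked on simulated data.

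The members and the 50 gene lists were chosen with earlier results of these data known. Named were the key genes of each list and its 2 called members with the largest change, the 10 largest changes per direction in DF versus WT, the 15 largest per direction among DF-particular genes and the 5 largest per direction among genes called only against TF and TFD, each at a mean log2 CPM from 1 up, and DF-particular list members. Gfi1b, Lmo2, Urod, C1qb, C1qc, S100a8, S100a9, Cd177, Flot1, Flot2, F10, Hoxa9 and Hopx were chosen after their values were seen. The runs on libraries under 10000 Xist counts and with DESeq2 without a DF library were also added after seeing the data. Some named results are not reported here.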

Additional observations from a re-analysis of the deposited data

How the results depend on the processing

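DF versus WT kept its counts within 1.5 times under other scalings, filters, tools and omissions, with these exceptions: 664 up and 869 down at 2-fold or more, and 1675 up by DESeq2 without DF replicate 1. The calls against the mean of TF and TFD moved more. They were 84 higher and 475 lower with library totals (19 DF-particular genes up), 305 and 599 by DESeq2 (101 up and 351 down), and 164 lower by limma voom (85 down). With only the groups compared they were 79 and 156 (24 up and 99 down), with a term for libraries of 10000 or more Xist counts 62 and 156 (17 up and 99 down), and at 2-fold or more 19 higher, while 20 DF-particular genes up had a 2-fold change against WT, a limit not set on their difference from TF and TFD. Among libraries under 10000 Xist counts 79 were higher (20 up). DESeq2 without DF replicate 1 gave 252 and 487 (267 down), and without DF replicate 2 it gave 22 DF-particular genes up. Leaving out 1 library at a time gave 2 to 501 higher, 0 to 505 lower, and 0 to 230 up and 0 to 297 down among DF-particular genes, the lowest each time without DF replicate 2. The cause was not tested.

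The replicate numbers did not pair the libraries, since the deviations of same-numbered libraries correlated at -0.299 to 0.247. With the replicate number as a block, 2516 genes rose and 1976 fell in DF versus WT, and 135 were higher and 350 lower than in TF and TFD.

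The Dnmt3a difference from WT was -0.4166 without WT replicate 1, 0.0071 without WT replicate 3, 0.0036 with the Xist term and 0.0107 among libraries under 10000 Xist counts. Clec9a turned to -0.0316 by DESeq2 without DF replicate 1. Depth limits genes near 1 CPM, such as Dnmt3l.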

Other observations

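Further groups moved in DF versus WT. Of 17 inflammasome genes 10 rose and 2 fell. Naip2, a sensor of bacterial secretion systems, was DF-particular at 222, 257 and 278 CPM in DF and 140.5, 150.1 and 145 CPM in WT (log2 fold change 0.80, SE 0.10, adjusted p = 8.81e-05). Of 11 genes of the phagocyte NADPH oxidase and Fc receptors 6 rose and none fell, and Ncf4, a cytosolic oxidase subunit, was DF-particular at 208, 212 and 239 CPM in DF and 170.4, 150.2 and 134 CPM in WT (log2 fold change 0.54, SE 0.12, adjusted p = 0.00353). Of 15 sphingolipid breakdown genes 10 rose and 1 fell, and Gm2a, the activator of ganglioside breakdown, rose 1.996-fold against WT (adjusted p = 5.84e-05). Of 17 megakaryocyte and platelet genes 5 fell and none rose, 29.4% against 16.6% of all tested genes, and 2 and 1 fell without DF replicates 1 and 2. Vwf, which tethers platelets, was DF-particular at 9.76, 10.6 and 11.6 CPM in DF and 23.1, 19.7 and 26.9 CPM in WT (log2 fold change -1.13, SE 0.24, adjusted p = 0.00281).

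Rprl3, an RNase P RNA-like gene, read 223, 193 and 306 CPM in TF and 226 and 0.535 CPM in TFD, and 0.246, 0.495 and 0.179 CPM in WT and 4.604, 0.257 and 0.09898 CPM in DF. It was high in every TF library and TFD replicate 1 and low in all WT and DF libraries and TFD replicate 2. No explanation was tested.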
